A study of Mus musculus with 23 samples.

Results

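Transcripts of 5 genes that act on actin filaments were followed in the mouse nucleus accumbens: the cofilin gene Cfl1, the coronin gene Coro2b, the profilin genes Pfn1 and Pfn2, and the actin gene Actb. They are 5 of the 8251 genes measured, and the platform annotation gives them 13 probe sets, 6 of which are control probe sets of Actb. Cfl1 and Coro2b were chosen by their array values, for being higher in the HMACT line, so their line differences are given as a description, without a test. Effects of methamphetamine were not used in that choice and were tested for every gene above the floor of the arrays.

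The mice came from a pair of lines that trace to a C57BL/6J x DBA/2J cross and were selected on the acute response to methamphetamine (MA): HMACT on a high response and LMACT on a low one. Methamphetamine is a stimulant that releases dopamine. Animals of either line had 1 challenge injection, of 2 mg/kg MA or of saline (SAL), and the accumbens was dissected 1 hour afterwards. Each array held RNA of a 4-way tissue pool. There were 6 HMACT pools after MA, with mean ages of 77.25 to 150 days, and 6 HMACT pools after SAL, of 77.25 to 154 days. There were 5 LMACT pools after MA, of 60 to 114.75 days, and 6 LMACT pools after SAL, of 61.5 to 127.5 days. All pools carry the same line-pair code, so a difference between the lines comes from 1 pair of lines, and the sources used here do not say how animals were shared among pools. The p-values therefore measure the spread between these pools.

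Cells build actin filaments from monomers, and the turnover of filaments shapes dendritic spines, the sites of most excitatory synapses on striatal projection neurons. Cofilin severs filaments and frees monomers, coronins bind along filaments and guide branching and severing, and profilins hand monomers to growing filament ends. In the striatum, psychostimulants are known for changing spine number and shape, which depends on this turnover.

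The promoters of Cfl1 and Coro2b are shown because these are the members chosen for differing in the same direction between the lines. Both are RefSeq sequences of the GRCm38.p6 build, for the 250 bases before the annotated start of each gene. The Cfl1 stretch is chr19:5490205-5490454 on the plus strand and the Coro2b stretch is chr9:62537045-62537294 on the minus strand. Capitals mark each match to CCAAT, read on either strand.
Cfl1: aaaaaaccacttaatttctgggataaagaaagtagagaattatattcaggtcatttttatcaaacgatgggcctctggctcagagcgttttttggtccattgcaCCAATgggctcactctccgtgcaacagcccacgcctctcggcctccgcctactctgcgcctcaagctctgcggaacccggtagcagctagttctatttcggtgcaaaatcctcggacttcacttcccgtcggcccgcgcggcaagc
Coro2b: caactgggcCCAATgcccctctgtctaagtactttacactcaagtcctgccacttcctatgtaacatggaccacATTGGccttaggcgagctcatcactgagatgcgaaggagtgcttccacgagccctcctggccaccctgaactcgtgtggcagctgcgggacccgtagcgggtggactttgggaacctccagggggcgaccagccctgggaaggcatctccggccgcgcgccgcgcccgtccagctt
The Cfl1 stretch held 1 CCAAT match and the Coro2b stretch 2, which did not overlap; 33.9% of the 32851 promoters in the table held at least 1. No match to GGGCGG, the GC box, which was found in 32.7% of promoters, lay in either stretch on either strand. TATAAA, found in 12.4%, and the CArG box, the site bound by serum response factor and found in 1.47%, were not matched either. The stretches of Pfn1 and Pfn2 held GGGCGG on the minus strand, at 2 places and 1 place. Actb was not in the table. GC content was 52% for Cfl1 and 62% for Coro2b, against 54.4% for Pfn1 and 78% for Pfn2.

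Values are on the log2 scale of the deposited table, where 1 unit is a factor of 2 and values below 2.3 were treated as the floor. A first principal axis of the residuals from group means, over 5308 genes, held 62.1% of their variance, and 4 arrays stood apart on it: HMACT SAL replicates 3 and 5, HMACT MA replicate 3 and LMACT MA replicate 4. Their scores were 41.8 to 65.0, against -22.8 to 23.8 for the other 19 arrays. The axis came from residuals, but the scores were taken from values centred over all arrays, so differences between the groups remain in them. In HMACT the scores ran from -22.1 to 65.0. In LMACT they ran from -22.8 to -12.2, apart from MA replicate 4 at 56.5. Of the 4 striatal projection neuron markers on the array none was at the floor, and their summed level lay between 13.6 and 14.7 on all arrays. Of the 8 microglial markers on the array, Cx3cr1 and Aif1 were at the floor throughout and the other 6 were not, with a summed level of 10.2 to 11.8.

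Cfl1, which encodes the main cofilin of non-muscle cells, was higher in HMACT after either injection. After MA its values in HMACT were 10.40 at the lowest, 11.004 at the median and 11.05 at the highest, against 9.50, 10.06, 10.04, 9.45 and 9.51 in LMACT. All 6 HMACT pools lay above all 5 LMACT pools, an order that 27 of 8251 genes showed (0.327%). The difference was 1.18 (SE 0.239), which is 2.27-fold. After SAL its values in HMACT were 10.31 at the lowest, 10.84 at the median and 12.20 at the highest, and in LMACT 10.08, 10.38 and 10.61. The groups overlapped there, since HMACT replicate 4 lay among the LMACT pools, while HMACT replicate 3 lay far above every other array. The difference after SAL was 0.60 (SE 0.228), which is 1.52-fold, and 0.35 (SE 0.156) without that replicate.

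Coro2b encodes a coronin found mainly in nervous tissue. After SAL its values in HMACT were 8.93 at the lowest, 9.08 at the median and 10.89 at the highest, against 8.30, 8.36 and 8.80 in LMACT. The 6 HMACT pools all lay above the 6 LMACT pools, as for 31 of 8251 genes (0.376%), and replicate 3 was again the highest. The difference was 0.96 (SE 0.294), which is 1.95-fold, and 0.67 without HMACT replicate 3. After MA the HMACT values were 8.88, 9.46 and 9.81 at the lowest, median and highest, and the LMACT values were 7.67, 8.40, 8.98, 7.98 and 8.27. Only the highest LMACT pool, replicate 4, which is one of the arrays that stand apart, reached into the HMACT range. The difference after MA was 1.15 (SE 0.308), which is 2.22-fold. A second Coro2b probe set, 161434_r_at, was at the floor on all 23 arrays, so the gene is read from 97365_at alone.

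**Figure D1:**
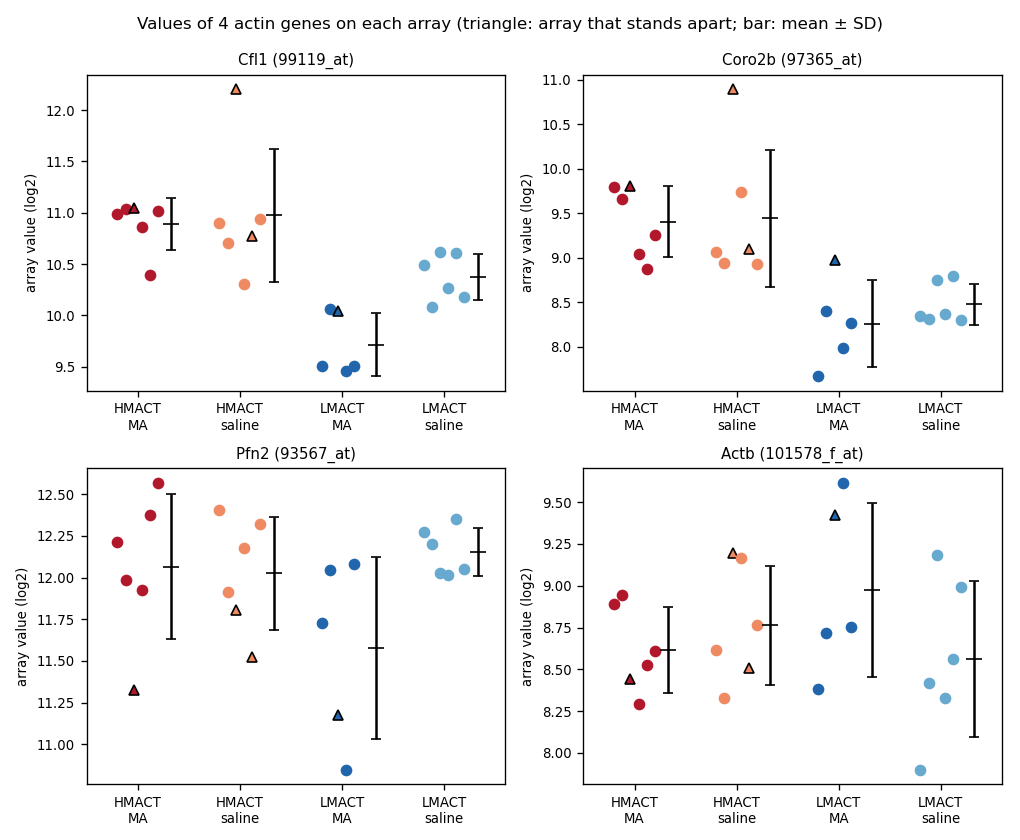
Each point is 1 array, on the deposited log2 scale, for Cfl1, Coro2b, Pfn2 and Actb, with HMACT after MA and SAL to the left of LMACT after MA and SAL; bars are the mean ± SD and triangles are the 4 arrays that stand apart. The vertical axes differ between panels and do not start at 0. Cfl1 after MA and Coro2b after SAL show no overlap between the lines, and HMACT SAL replicate 3 is the highest array for both.

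As the mean over both injections, Cfl1 was higher in HMACT by 0.89 (SE 0.165) and Coro2b by 1.06 (SE 0.213), which are 1.85-fold and 2.08-fold. They are ranked at places 11 and 15 by p-value among the 16 of 8251 genes (0.194%) with an adjusted p under 0.05 in that comparison. That comparison chose them, and nothing is read from their standing in it. After SAL alone and after MA alone, limma called 0 of 8251 genes (0%), although 1256 and 354 genes had an unadjusted p under 0.05. Cfl1 and Coro2b were thus not called within a single injection, and no test of them is read from this either.

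Several other measures moved with the line. The HMACT pools were older, with mean ages of 114.6 ± 34.9 days (SD, n = 12), against 76.6 ± 22.5 days in LMACT (SD, n = 11). Among pools under 100 days, Cfl1 averaged 10.72 ± 0.30 in 6 HMACT pools and 10.12 ± 0.43 in 9 LMACT pools (SD). Coro2b averaged 9.16 ± 0.32 in these HMACT pools and 8.40 ± 0.41 in these LMACT pools (SD). Among pools over 100 days, 6 in HMACT and 2 in LMACT, Cfl1 averaged 11.15 and 9.84, and Coro2b 9.69 and 8.29. In either age range every HMACT pool was older than every LMACT pool, so age and line cannot be told apart within it. With mean age as a covariate the mean line differences were 0.75 (SE 0.196) for Cfl1 and 0.84 (SE 0.247) for Coro2b. Both differences kept their direction in that fit, at a smaller size. The part of age in the line differences was not tested.

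A measure of RNA quality had different means, which single arrays moved. The Gapdh control probe sets for the 3' end exceeded those for the 5' end by 2.46 ± 0.25 in HMACT after MA and 2.19 ± 0.69 in HMACT after SAL (SD, n = 6 each). In LMACT they exceeded them by 2.99 ± 0.82 after MA (SD, n = 5) and 2.75 ± 0.20 after SAL (SD, n = 6). Without LMACT MA replicate 5, at 4.44, the LMACT mean after MA was 2.62 ± 0.14 (SD, n = 4), and without HMACT SAL replicate 3, at 0.854, the HMACT mean after SAL was 2.46 ± 0.25 (SD, n = 5). A larger gap is the usual sign of RNA that was shorter or less completely copied. With this gap as a covariate the line differences were 0.64 (SE 0.151) for Cfl1 and 0.75 (SE 0.201) for Coro2b.

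Without the 4 arrays that stand apart, Cfl1 differed by 0.79 (SE 0.122) and Coro2b by 0.97 (SE 0.152). Within chip lots, Cfl1 was higher in HMACT by 1.03 in the lot of 15 arrays and by 0.79 and 0.43 in the lots of 4 arrays each. Coro2b was higher by 1.16, 1.40 and 0.31 in the same lots. The last lot counts in LMACT MA replicate 4, whose label names a lot of its own. Without that array, 1 LMACT array is left there, and the differences were 0.32 for Cfl1 and 0.62 for Coro2b. The LMACT array left is a SAL pool, set against the mean of 1 SAL and 1 MA pool of HMACT, so injection is not balanced in these differences. The oligodendrocyte markers, of which 5 of 6 were on the array and 1, Cnp, was at the floor throughout, had a summed level of 12.0 to 13.1 in HMACT after MA and 12.4 to 13.1 in HMACT after SAL. In LMACT the sum was 13.1 to 13.6 after MA and 12.8 to 13.4 after SAL. The summed level of the 5 astrocyte markers on the array was 13.1 to 13.4 in HMACT and 13.5 to 14.1 in LMACT after MA. After SAL it was 13.2 to 13.7 in HMACT and 13.35 to 13.7 in LMACT. In the mean line difference, 1045 of all 8251 genes (12.7%) had an unadjusted p under 0.05 by limma. Of the 5 oligodendrocyte genes 0 passed after adjustment and 1 had such an unadjusted p, lower in HMACT. Of the 5 astrocyte genes 0 passed and 2 had such an unadjusted p, 1 higher and 1 lower in HMACT. The part of these cell types in the differences of Cfl1 and Coro2b was not tested. In pooled tissue, a smaller number of cells of a type and less RNA per cell cannot be told apart.

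Of the profilins, Pfn1, which encodes the form found in nearly all cells, was at the floor on all 23 arrays with its only probe set, 96070_at. It therefore has no measured level here and no difference. Pfn2, which encodes the profilin enriched in brain, was measured on every array.

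Pfn2 averaged 12.06 ± 0.43 in HMACT after MA and 12.02 ± 0.34 in HMACT after SAL (SD, n = 6 each). In LMACT it averaged 11.58 ± 0.55 after MA (SD, n = 5) and 12.15 ± 0.14 after SAL (SD, n = 6). The LMACT MA group was the lowest and the other groups lay within their spread of each other. The mean line difference was 0.18 (SE 0.159), with an adjusted p of 0.666 by limma, and its 95% interval ran from -0.15 to 0.51. After MA the lines differed by 0.49 (SE 0.230, adjusted p = 1 by limma) and after SAL by -0.13 (SE 0.220, adjusted p = 0.896 by limma). Pfn2 thus did not pass in any line comparison, and without LMACT MA replicate 5, its lowest pool, the difference after MA was 0.31 (SE 0.220).

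Actb encodes cytoplasmic beta-actin, the monomer on which the other members act. Its gene probe set 101578_f_at, which had the higher mean of a pair, averaged 8.62 ± 0.26 in HMACT after MA and 8.76 ± 0.35 in HMACT after SAL (SD, n = 6 each). In LMACT it averaged 8.98 ± 0.52 after MA (SD, n = 5) and 8.56 ± 0.47 after SAL (SD, n = 6). All 4 groups overlapped. The mean line difference was -0.08 (SE 0.168, adjusted p = 0.911 by limma), with a 95% interval from -0.43 to 0.27. The ending _f marks, in the manufacturer's naming, probes shared within a family of like sequences, so a signal from other actin genes cannot be told apart from that of Actb.

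The question put by the injections was whether these genes differed 1 hour after MA. None of the 4 measured genes passed the test in either line. Over all genes, limma called 2 (0.0242%) in the mean of both lines, 1 (0.0121%) in HMACT and 0 (0%) in LMACT, and the unadjusted counts were 124, 128 and 275.

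The largest differences were in LMACT. Cfl1 averaged 9.71 ± 0.31 in LMACT after MA (SD, n = 5), against 10.37 ± 0.23 after SAL (SD, n = 6). All 5 MA pools lay below all 6 SAL pools, an order shown by 19 of 8251 genes (0.23%), though the highest MA pool and the lowest SAL pool were close, at 10.06 and 10.08. The difference was -0.66 (SE 0.239), which is 1.58-fold, with an unadjusted p of 0.0123 and an adjusted p of 1 by limma. In HMACT the Cfl1 means were 10.89 ± 0.25 after MA and 10.97 ± 0.64 after SAL (SD, n = 6 each), a difference of -0.08 (SE 0.228, adjusted p = 1 by limma). The difference between these effects was 0.58 (SE 0.331, adjusted p = 0.860 by limma), with a 95% interval from -0.11 to 1.27, so an unequal response of the lines was not shown. In the mean of both lines Cfl1 differed by -0.37 (SE 0.165, adjusted p = 1 by limma).

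Pfn2 in LMACT read 11.73, 12.05, 11.18, 10.85 and 12.08 after MA, against a lowest value of 12.01, a median of 12.13 and a highest of 12.35 after SAL. Of the MA pools 3 lay below every SAL pool and 2 lay among them. The lowest, replicate 5, had the widest Gapdh control gap, at 4.44, and the next lowest, replicate 4, is one of the arrays that stand apart. The difference was -0.58 (SE 0.230), which is 1.49-fold, with an unadjusted p of 0.0210 and an adjusted p of 1 by limma. Without LMACT MA replicate 5, the lowest pool, it was -0.40, and with array weights -0.23. In HMACT the difference was 0.04 (SE 0.220). The interaction was 0.62 (SE 0.318, adjusted p = 0.860 by limma).

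Coro2b averaged 9.41 ± 0.40 in HMACT after MA and 9.44 ± 0.77 after SAL (SD, n = 6 each), a difference of -0.04 (SE 0.294). In LMACT it averaged 8.26 ± 0.49 after MA (SD, n = 5) and 8.48 ± 0.23 after SAL (SD, n = 6), a difference of -0.22 (SE 0.308, adjusted p = 1 by limma). Its interaction was 0.18 (SE 0.425), with a 95% interval from -0.70 to 1.07. For Coro2b all differences after MA lay within their standard errors, and intervals this wide do not show that MA left the gene unaltered. Over all 8251 genes the interaction called 0 (0%) with limma and 216 had an unadjusted p under 0.05.

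**Figure D2:**
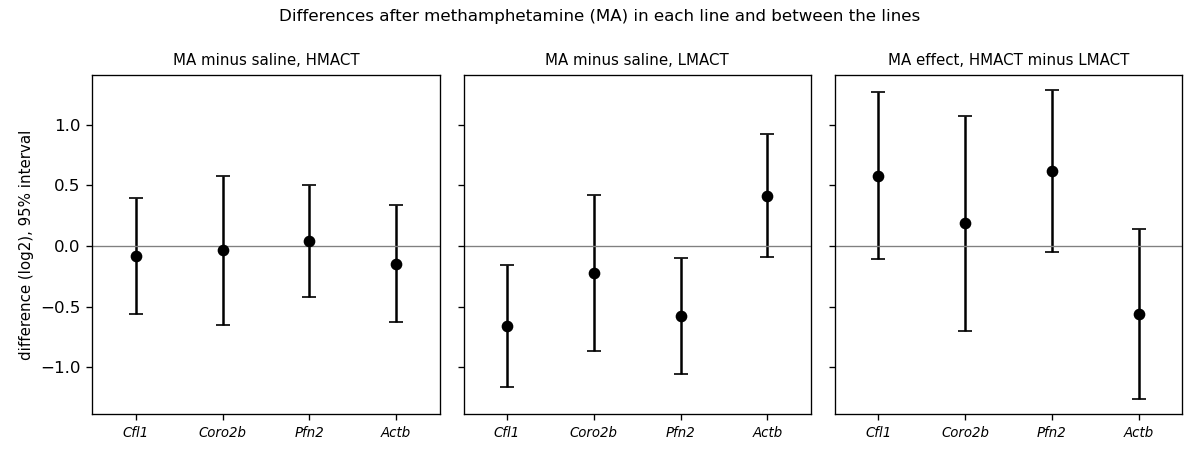
Points are log2 differences with their 95% intervals from limma for Cfl1, Coro2b, Pfn2 and Actb: MA minus SAL in HMACT, MA minus SAL in LMACT, and the first minus the second. Cfl1 at -0.66 and Pfn2 at -0.58 in LMACT are the pair whose intervals leave out 0 before adjustment, and every interval of the interaction takes in 0.

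For Actb the result depended on the probe set. In LMACT, 101578_f_at gave a difference of 0.41 (SE 0.243, adjusted p = 1 by limma) after MA. The other gene probe set, 95705_s_at, averaged 7.30 ± 0.50 in LMACT after MA (SD, n = 5) and 8.18 ± 0.41 after SAL (SD, n = 6). Its difference was -0.88 (SE 0.390, adjusted p = 1 by limma), of opposite sign. Within groups these probe sets correlated at r = 0.452 over 23 arrays, as a description of probe sets on the same arrays.

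The control probe sets of Actb read 3 places along its transcript. The 3' set averaged 14.62 ± 0.21 in HMACT after MA, 14.73 ± 0.30 in HMACT after SAL, 14.79 ± 0.20 in LMACT after MA and 14.62 ± 0.14 in LMACT after SAL (SD). The ranges of all 4 groups overlapped. The 5' set averaged 12.38 ± 0.39, 12.71 ± 0.67, 12.05 ± 1.14 and 12.11 ± 0.24 in the same order of groups (SD), and in LMACT after MA replicate 5 stood alone at 10.08. The 3' set exceeded the 5' set by 2.24 ± 0.35 in HMACT after MA, 2.02 ± 0.44 in HMACT after SAL, 2.74 ± 1.11 in LMACT after MA and 2.51 ± 0.20 in LMACT after SAL (SD). The group means of Actb thus show the same order between the lines as the Gapdh controls, with replicate 5 of LMACT after MA the widest gap at 4.70. The other LMACT pools after MA read 2.34, 2.09, 2.10 and 2.50, around the HMACT mean of 2.24 after MA. The middle and 5' sets moved together within groups (r = 0.967), whereas 101578_f_at did not follow the 3' set (r = 0.04) and 95705_s_at ran against it (r = -0.51). The 3 control sets on the antisense strand lay between 2.25 and 5.42.

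**Figure D3:**
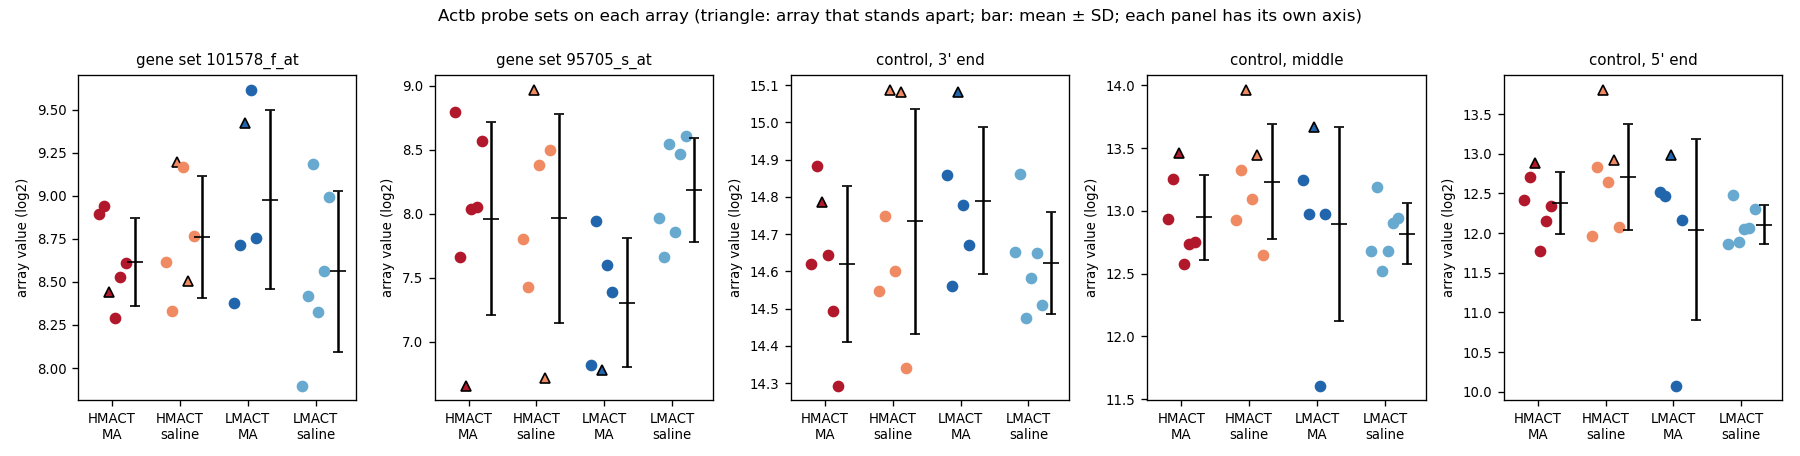
Each point is 1 array, on the deposited log2 scale, for 5 probe sets of Actb, with HMACT after MA and SAL to the left of LMACT after MA and SAL; bars are the mean ± SD, triangles the 4 arrays that stand apart, and each panel has its own axis. In LMACT after MA the 2 gene probe sets differ from SAL in opposite directions, and replicate 5 is the low array of the middle and 5' controls.

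Variation within groups was compared between members, as residuals from group means. On the 19 arrays that do not stand apart, Cfl1 and Coro2b correlated at Pearson r = 0.31, with a Spearman rank correlation of 0.37 (permutation within groups, two-sided, adjusted p = 0.505 and 0.423 over 6 pairs). Without the 2 arrays farthest from the Cfl1 median, r was 0.07. Of the 6 pairs of Cfl1, Coro2b, Pfn2 and Actb, 0 passed on these 19 arrays. Over all 23 arrays Cfl1 and Coro2b correlated at r = 0.748, and Coro2b and Actb at r = 0.527, each with a permutation adjusted p of 0.0239 over 6 pairs. By rank over 23 arrays, Cfl1 and Coro2b correlated at 0.634 and Coro2b and Actb at 0.447 (permutation within groups, adjusted p = 0.0153 and 0.119). Coro2b and Actb thus did not pass by rank, and on the 19 arrays their Pearson r was 0.489 (permutation within groups, adjusted p = 0.239). Neither relation passed without the 4 arrays that stand apart, and that of Cfl1 and Coro2b did not hold. With group means taken anew, r of Cfl1 and Coro2b was 0.446 without HMACT SAL replicate 3 alone, which was 12.20 for Cfl1 and 10.89 for Coro2b, and 0.732 without the other 3 of those arrays. Without the 2 arrays farthest from the Cfl1 median, HMACT SAL replicates 3 and 4, and with group means kept, it was 0.765. The kept HMACT SAL means include replicate 3, and the pools left in that group all lie below them for both genes. This value is therefore not free of replicate 3. In the lot of 15 arrays, which holds replicate 3, r was 0.885.

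**Figure D4:**
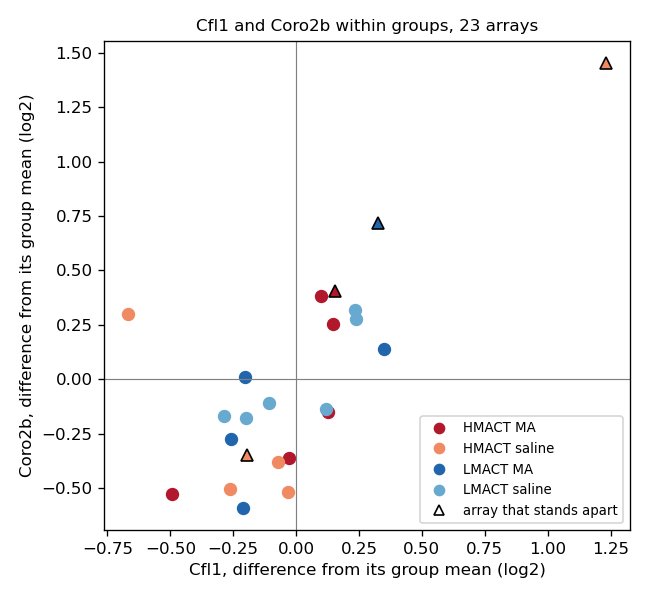
Each of the 23 points is 1 array, placed by its difference from the group mean (log2) for Cfl1 on the horizontal and for Coro2b on the vertical axis, coloured by group; triangles are the 4 arrays that stand apart. HMACT SAL replicate 3 is the point at the upper right, and r falls to 0.31 when the triangles are left out and group means are taken anew.

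The genes most like each member were taken by r of the residuals over 23 arrays, among 5074 other genes above the floor on every array. For Cfl1 they were Prkaca (r = 0.856), the catalytic subunit of protein kinase A, Ap2a1 (0.836), an adaptor subunit of clathrin-coated vesicles, and Ogfr (0.83), the opioid growth factor receptor. For Coro2b they were Slc1a1 (0.899), a neuronal glutamate transporter, Chst2 (0.898), a sulphotransferase, and Hnrnpl (0.897), an RNA-binding protein. For Pfn2 they were Ubp1 (0.931), a transcription factor, Stx7 (0.920), an endosomal syntaxin, and Ipo11 (0.917), an importin. For Actb they were Pfdn2 (0.868), a subunit of prefoldin, the chaperone that carries unfolded actin, Ube4b (0.816), a ubiquitin ligase, and Fkbp2 (0.813), a prolyl isomerase. The members' residuals correlated with the axis of the arrays at 0.52 for Cfl1, 0.68 for Coro2b, 0.25 for Actb and -0.73 for Pfn2. On the 19 arrays that do not stand apart, r was 0.561 to 0.676 for the genes named with Cfl1 and 0.718 to 0.761 for those with Coro2b. It was 0.876 to 0.930 for those with Pfn2 and 0.863 to 0.917 for those with Actb.

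Other genes of actin turnover were taken as 10 lists of 96 genes, of which 69 were on the array and 64 above the floor on at least 1 array. In the 7 comparisons made, 0 of the 69 passed the adjusted threshold with limma. In the mean line difference 5 of 69 were higher in HMACT at an unadjusted p under 0.05 (7.25%), against 4.97% of all genes. At the same threshold 6 of 69 were lower (8.70%), against 7.7% of all genes. Differences were positive for 30 and negative for 34 of the 64, with a median of -0.02, so the lists as a whole did not share the direction of Cfl1 and Coro2b.

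The other cofilin, Cfl2, the form abundant in muscle, had a mean line difference of opposite sign to that of Cfl1. It averaged 6.12 ± 1.08 in HMACT after MA and 5.48 ± 1.19 in HMACT after SAL (SD, n = 6 each), against 6.25 ± 1.29 in LMACT after MA (SD, n = 5) and 7.24 ± 0.29 in LMACT after SAL (SD, n = 6). Its mean line difference was -0.94 (SE 0.425, adjusted p = 0.372 by limma). Between the lines Cfl2 differed by -1.76 (SE 0.586) after SAL and by -0.13 (SE 0.615) after MA. Wdr1, which helps cofilin take filaments apart, differed by -0.16 (SE 0.0758). The kinases that phosphorylate and so inactivate cofilin gave 0.08 (SE 0.0519) for Limk1 and 0.40 (SE 0.347) for Tesk1. None of the 7 genes in these lists on the array passed.

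All 3 other coronins on the array had positive line differences, and none passed. Coro1a, a coronin best known from leukocytes, differed by 0.63 (SE 0.298, adjusted p = 0.392 by limma), and Coro1b, a partner of the Arp2/3 complex, by 0.65 (SE 0.338, adjusted p = 0.432 by limma). Among monomer binders, Tmsb10, a thymosin that holds actin monomers, averaged 9.46 ± 0.58 in HMACT after MA and 9.89 ± 1.37 in HMACT after SAL (SD, n = 6 each). In LMACT it averaged 7.84 ± 0.55 after MA (SD, n = 5) and 9.18 ± 0.51 after SAL (SD, n = 6). Its mean line difference was 1.16 (SE 0.350, adjusted p = 0.221 by limma). Its difference after MA in LMACT was -1.34 (SE 0.507, adjusted p = 1 by limma). Twf2, a twinfilin, differed between the lines by 0.84 (SE 0.281, adjusted p = 0.272 by limma) and after MA in LMACT by 0.65 (SE 0.407, adjusted p = 1 by limma), opposite in sign to Tmsb10.

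Of the other actins, Acta2 of smooth muscle and Actc1 of heart lay close to the floor, with line differences of -0.10 (SE 0.111) and 0.02 (SE 0.0266). In the Arp2/3 complex, which starts filament branches, the subunits Arpc4 and Actr3 differed by 0.29 (SE 0.219) and -0.19 (SE 0.193), and 0 of 6 genes on the array passed. Among nucleators, Cyfip2 of the WAVE complex differed by 0.56 (SE 0.176, adjusted p = 0.244 by limma) and the formin Diaph1 by -0.62 (SE 0.283, adjusted p = 0.375 by limma).

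Tmod3, which caps the slow-growing filament end, differed by -1.05 (SE 0.364, adjusted p = 0.287 by limma), and Capza1, of the protein that caps the fast-growing end, by -0.56 (SE 0.249, adjusted p = 0.369 by limma). Fscn1, the bundling protein fascin, had the smallest p of the lists and differed by 0.54 (SE 0.137, adjusted p = 0.135 by limma). Tpm4, a tropomyosin, differed by -0.41 (SE 0.118, adjusted p = 0.197 by limma). Without the 4 arrays that stand apart, 46 of all 8251 genes passed (0.558%) and 2 genes of the lists: Tmod3 at -0.73 (SE 0.113, adjusted p = 0.0123 by limma) and Tmsb10 at 0.99 (SE 0.210, adjusted p = 0.0468 by limma). Without LMACT MA replicate 4 alone, 76 of all genes passed (0.921%), and of the lists Fscn1, at 0.60 (SE 0.136, adjusted p = 0.0498 by limma). With array weights 830 of all genes passed (10.1%) and 10 of the lists.

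**Figure D5:**
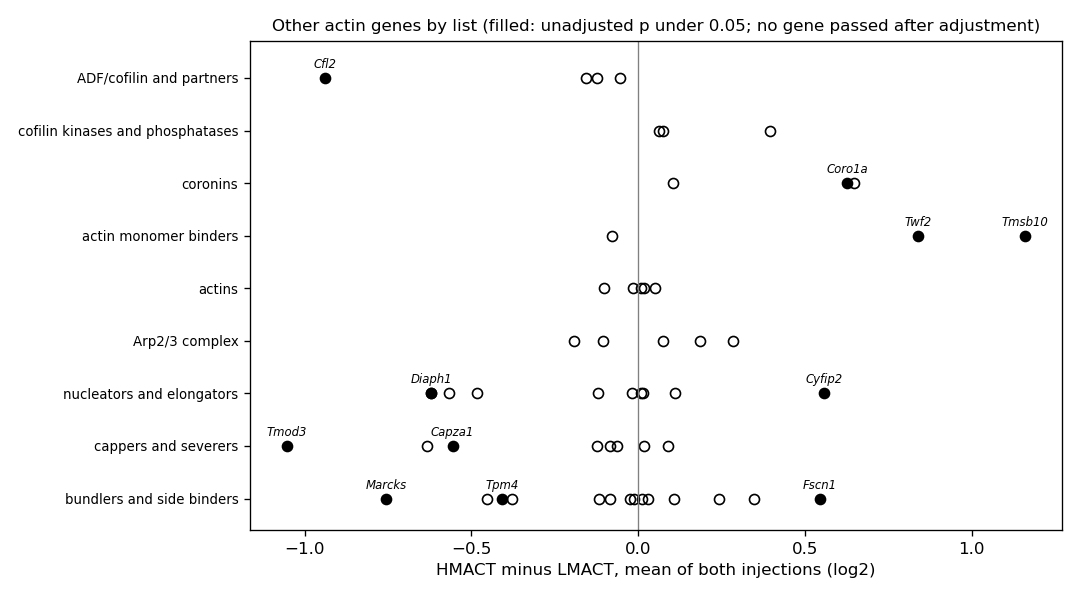
Each circle is 1 of the other actin genes above the floor, placed by its mean line difference, HMACT minus LMACT (log2), with the lists described here on the vertical axis; filled circles have an unadjusted p under 0.05 and are named. The 5 filled circles on the positive side and the 6 on the negative side are spread over 6 lists, and none passed after adjustment.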

How the data were processed

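Affymetrix arrays measured 23 pools of nucleus accumbens tissue, 1 array a pool. The authors' deposited table holds 1 log2 value per probe set and array; the scale was read from the values, 2.23 to 16.4. How it was normalized and summarised is not given in the sources used here. The submitters' processing notes name R 2.7.1. The lowest value recurs and made up 33.0% of all values, and 2089 genes stayed below 2.3 on every array. Signal above this floor and the number of arrays limit the precision.

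Of 12488 probe sets, 66 were controls and 10833 carried 1 gene symbol; the probe set with the highest mean stood for a gene, which gave 8251 genes. limma 3.58.1 in R 4.3.3 fitted the 4 group means on all 23 arrays, without covariates, followed by eBayes, in 7 comparisons. P-values were two-sided and Benjamini-Hochberg adjusted over all genes, with a threshold of 0.05. The fit was tested on simulated data. Arrays that stand apart scored over the median plus 3.5 median absolute deviations on the first principal axis of the residuals. The scores used values centred over all arrays, with group differences left in.

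The members and the gene lists were chosen with earlier results of these data known. Genes were named by rule: the members, list genes past the threshold in any comparison, the 2 of smallest p per list in the mean line difference, and the 3 most like each member. The named genes of 1 list are not reported here. The genes passing without LMACT MA replicate 4 or without 4 arrays are named by those fits. Correlations used 100000 permutations within groups. Promoters came from RefSeq, where 4 of 5 members matched by symbol. Alternatives covered normalization, filters, probe sets, array weights, chip lot, age, replicate number, the array axis, the Gapdh control gap and leaving out each array. The third lot as labelled, and the Gapdh gap and the Cfl1 and Coro2b correlation without single arrays, were added after seeing the data.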

Additional observations from a re-analysis of the deposited data

Results flagged for a closer look

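Of 36 groups of 5 or 6 arrays looked at for the members' probe sets and control gaps, 4 held an array far from the others of its group. Chance alone marks about 1 group in 20. Cfl1 in HMACT after SAL had replicate 3 at 12.20, well above the other 5 pools, and this array is one of the 4 that stand apart. Cfl1 in HMACT after MA had replicate 5 at 10.40, below the other 5 pools. The 5' control probe set of Actb had replicate 5 of LMACT after MA at 10.08. The gap between the 3' and 5' controls of Actb on that same array was 4.70. These values are given as measured, and their causes were not tested.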

How the results depend on the processing

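The 28 values of the members were recomputed under 17 other settings and without each of the 23 arrays, and 1043 of 1115 recomputed results kept direction and side of the adjusted threshold. The mean line differences of Cfl1 and Coro2b lost the threshold 29 times, the line differences of both after MA gained it 5 times, and 38 results changed sign. Because Cfl1 and Coro2b were chosen for their line difference, where they pass the threshold describes the fits and is not a test. The mean line difference stayed positive throughout, from 0.63 to 1.03 for Cfl1 under other settings. With the mean of all its probe sets, Coro2b gave 0.53, because its second probe set is at the floor. Of 2 members past the threshold in that comparison, 1 (Cfl1) passed with chip lot as a block, with the random replicate block within line and with the array axis, and 0 in the lot of 15 arrays, with age as a covariate, under 100 days and with the Gapdh gap; leaving out 1 array gave 0 to 2, and 0 without LMACT SAL replicate 2 or 6 or LMACT MA replicate 6. The fixed replicate block gave 0.89 for Cfl1 and 1.06 for Coro2b. Same-numbered pools deviated together, at r over 0.1, in 8 of 11 pairs (r from -0.62 to 0.88). Same-numbered pools of a line share a chip lot (with the fourth lot counted in the third), and 3 HMACT pairs the same mean age. The labels do not call the number a batch, so the fit reported did not pair the pools. Whether the number marks a batch was not tested. In the other 6 comparisons, where 0 passed, 2 passed with array weights and 1 without the 4 arrays that stand apart or with the array axis; all were line differences after MA, and 1 passed without HMACT SAL replicate 3 (range 0 to 1). Of other actin genes, 10 passed with array weights, 2 without those 4 arrays, and 0 to 1 without 1 array. Of all genes, 16 became 26 with quantile normalization, 32 with median centring, 29 without the dimmest 40%, 830 with array weights, 1 in the lot of 15 arrays, with age or under 100 days, 46 without the 4 arrays, 37 with the array axis, 4 with the Gapdh gap, and 9 (LMACT MA replicate 6) to 76 (LMACT MA replicate 4) without 1 array.

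Most sign changes were of small differences, those of Actb with other probe sets were not, and the cause was not tested. Cfl1 after MA in HMACT became 0.11 with array weights, 0.084 under 100 days, 0.15 without the 4 arrays and 0.043 with the Gapdh gap (-0.21 to 0.17 without 1 array). Coro2b after MA became 0.012 in the mean of both lines with the Gapdh gap (-0.22 to 0.016), and in HMACT 0.052 with array weights, 0.17 in the lot of 15 arrays, 0.16 without the 4 arrays, 0.093 with the array axis and 0.11 with the Gapdh gap (-0.14 to 0.25). Pfn2 became 0.051 without the 4 arrays and 0.23 with the array axis in the line difference after SAL, 0.0028 after MA with array weights, and in HMACT -0.091 in the lot of 15 arrays and -0.064 with the array axis (-0.061 to 0.19). For Actb, the mean of its probe sets gave 0.070, -0.00874 and 0.15 for the line (mean, SAL, MA), -0.15 and -0.23 after MA (mean, LMACT) and 0.16 for the interaction; its second probe set, chosen as an alternative after seeing the data like the Gapdh gap, gave 0.22, -0.22, 0.66, -0.44, -0.88 and 0.87.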
